A study of Mus musculus with 46 samples.

Results

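The BCL2 family decides whether the outer membrane of a mitochondrion is breached, the step that commits a cell to intrinsic apoptosis. Bax and Bak1 encode the pore-forming effectors, Bcl2, Bcl2l1 (BCL-XL) and Mcl1 encode guardians that hold the effectors in check, and the BH3-only genes encode sensors that block the guardians or activate the effectors. Of the BH3-only genes, Bbc3 (PUMA) and Pmaip1 (NOXA) are known p53 targets, Bcl2l11 encodes BIM, Bad encodes a sensor controlled by phosphorylation, and Hrk encodes Harakiri, a small protein that binds BCL2 and BCL-XL and is best known from neurons. In islets this pathway governs loss of β-cells, and in the liver the survival of hepatocytes depends on BCL-XL and MCL1.

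These 10 genes, of 55487 in the deposited tables, were picked by symbol, and all 10 were found at 1 identifier each. They were chosen with results of these libraries known, because Hrk had been seen to be higher in the knockouts. Hrk is therefore described without a test wherever a knockout is set against its own control, and only the other 9 genes are counted there. The 46 mouse RNA libraries came from 3 experiments. Islets labelled Tfam control or Tfam KO (Tfam packages mitochondrial DNA and helps to start its transcription) came from females (5 control, 4 KO) and males (3 control, 2 KO). Islets labelled Clec control or Clec KO (Clec16a regulates the removal of damaged mitochondria) came from mice on diets given as RFD (4 control, 4 KO) and HFD (6 control, 5 KO). Livers, whose descriptions carry the letters AAV, were labelled control (6), Mfn DKO (4; Mfn1 and Mfn2 join mitochondria) or Tfam KO (3). Islets, which hold several endocrine cell types and not β-cells alone, were cultured overnight after isolation. The Cre driver, the floxed alleles, the AAV construct and the ages are not given in the sources used here, and neither are the sexes of the Clec16a islets and livers. By their counts of Xist and Ddx3y the livers were of both sexes. The main liver fits had no term for sex, and an alternative fit took Xist as a covariate. The labels call the samples biological replicates, without saying whether any islets were pooled.

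Total counts were 55223041 to 83342809 per library in the Tfam islets, 16235173 to 55810879 in the Clec16a islets and 41961114 to 56894510 in the livers. Tfam was lower in both Tfam KO sets (16.0 to 18.9 against 37.8 to 44.7 CPM, read counts scaled to library size, in islets, and 13.1 to 15.9 against 54.2 to 66.2 CPM in livers), and Mfn1 was 15.6 to 25.4 against 67.8 to 88.3 CPM in Mfn DKO livers. Clec16a was not lower in the libraries labelled Clec KO (23.4 to 32.9 CPM against 20.9 to 31.8 CPM in controls), so its counts do not show the genotype, and those groups are named by their label. The β-cell markers Ins1, Ins2, Iapp, Mafa, Ucn3, Slc2a2, Nkx6-1 and Pdx1 were all detected in islets, and the 8 hepatocyte markers including Alb and Cps1 were all detected in livers. Here and below, CPM are scaled by TMM within an experiment, so levels set across experiments are only a description.

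A pair of libraries stood apart from the rest of their groups. Replicate 4 of the islets labelled Clec KO on HFD had 19.5 CPM of Ddit3 (the stress-response factor CHOP), where the other 4 had 47.7 to 61.1 CPM and the HFD controls 20.4 to 32.7 CPM. Its Trib3, a CHOP target, was 4.69 CPM, inside the control range of 3.64 to 6.98 CPM and below the 58.1 to 92.7 CPM of the other 4. Replicate 2 of the Tfam KO livers had a summed hepatocyte marker level of 23324.6 CPM, against a median of 60802.2 CPM in its group. Because Clec16a counts do not show the genotype, the label of the HFD library could not be checked from them. Member results that rest on these libraries are given with and without them.

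Promoter sequence was taken from RefSeq for the genes on which the results turn: Hrk, for its level in the knockouts, Bcl2l11, called in the islets labelled Clec KO, and Bax, called in both Tfam KO tissues. The RefSeq table (GRCm38.p6) held 15 windows for 9 of the 10 genes. Each line gives the 250 bases before the annotated start, 5′ to 3′ on the gene's strand, with motif matches in capitals. The RefSeq start of Hrk (118169764) lies 16 bases inside the protein-coding transcript of GENCODE M21, and 5116 bases inside the M21 gene, which opens with a second, processed transcript at 118164648, so positions here are relative to the RefSeq start.
Hrk promoter, chr5:118169514-118169763, plus strand: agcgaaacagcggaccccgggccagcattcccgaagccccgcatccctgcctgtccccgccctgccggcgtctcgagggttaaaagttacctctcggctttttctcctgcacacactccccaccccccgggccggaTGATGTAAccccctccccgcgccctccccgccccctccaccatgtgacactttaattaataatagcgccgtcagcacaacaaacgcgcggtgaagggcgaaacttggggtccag
Bcl2l11 promoter, chr2:128125788-128126037, plus strand: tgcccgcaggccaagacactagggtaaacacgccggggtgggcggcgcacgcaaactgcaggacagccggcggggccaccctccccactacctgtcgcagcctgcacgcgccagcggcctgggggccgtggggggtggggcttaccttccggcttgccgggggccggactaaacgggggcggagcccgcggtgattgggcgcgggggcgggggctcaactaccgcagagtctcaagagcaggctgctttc
Bax promoter, chr7:45466899-45467148, minus strand: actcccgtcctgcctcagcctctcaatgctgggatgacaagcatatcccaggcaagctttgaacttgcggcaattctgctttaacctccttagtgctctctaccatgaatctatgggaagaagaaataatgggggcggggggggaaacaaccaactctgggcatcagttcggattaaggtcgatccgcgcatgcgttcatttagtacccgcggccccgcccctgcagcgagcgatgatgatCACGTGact

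Both strands were searched for 4 motifs: TGATGNAA (CARE, the element of ATF4 and CHOP with C/EBP), TGANTCA (AP-1), CACGTG (the E-box of MYC) and TGACGTCA (CRE). TGATGNAA contains no other of the 4. The Hrk window held TGATGTAA from -114 to -107 before the start, and TGATGNAA occurred in 1134 of all 32851 windows of that length (3.45%). The Bax window held the E-box from -9 to -4, and 1 of 3 Bbc3 windows held it from -64 to -59 (6.02% of all windows). None of the 4 motifs lay in the windows of the other 6 genes (AP-1 lay in 6.75% of all windows and CRE in 1.55%). A match describes letters only, and no binding was measured here. The 250 Hrk bases were 63.2% G or C with 21 CpG, against medians of 52.4% and 6 over all windows.

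Across the controls Hrk was the lowest of the 10 genes. Compared per length, with the authors' TPM values, which divide by transcript length, Mcl1 led in every set of libraries, at 70.1 ± 10.5 TPM (SD, n = 8) in Tfam control islets, 56.2 ± 7.53 TPM (SD, n = 10) in Clec16a control islets and 84.9 ± 4.62 TPM (SD, n = 6) in control livers. Hrk closed the order at 0.0205 ± 0.0261, 0.0364 ± 0.0334 and 0.113 ± 0.0381 TPM in the same sets. In the control islets of both experiments Bax, Bcl2l1 and Bad followed Mcl1. The ranges of Bax and Bcl2l1 overlapped in the Tfam controls, and those of Mcl1 and Bax in the Clec16a controls. In control livers Bad (19.9 TPM), Bcl2l1 (19.2 TPM) and Bax (19 TPM) could not be ordered, since their ranges overlapped. The 2 BH3-only genes Bbc3 and Bcl2l11 took middle places, at 10.4 and 5.78 TPM in Tfam control islets. Pmaip1 was at most 1.16 TPM in every control library. With its higher level in the knockouts, Hrk passed Pmaip1 per length in 8 of 9 libraries labelled Clec KO and in 4 of 4 Mfn DKO livers, but in 0 of 6 Tfam KO islets and 0 of 3 Tfam KO livers. In no library did Hrk reach Bcl2l11.

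**Figure D1:**
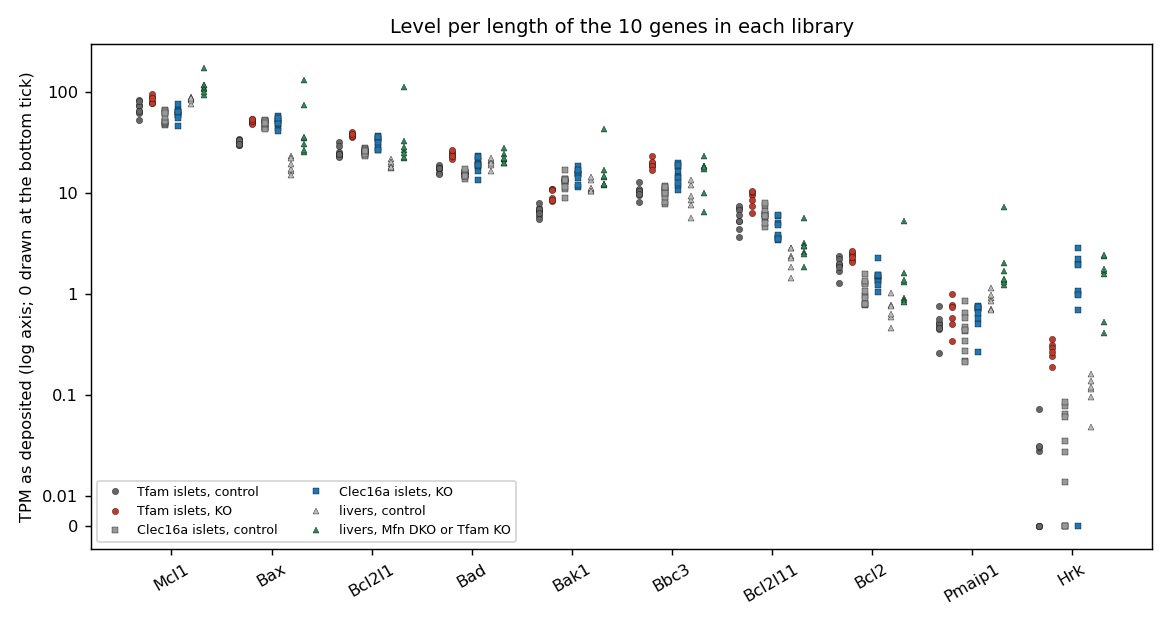
Deposited TPM (log axis, values of 0 drawn at the bottom tick) of the 10 genes in all 46 libraries, 1 point per library, coloured by experiment and genotype. Mcl1 is at the top and Hrk at the bottom in the controls, and Hrk lies above Pmaip1 in 8 of 9 libraries labelled Clec KO and in 4 of 4 Mfn DKO livers, and above Bcl2 in 3 of 9 and 3 of 4.

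Hrk was near the limit of detection in control islets and was higher in nearly every knockout library. In Tfam control females it was 0.181, 0.0712, 0, 0 and 0 CPM, and in control males 0.0773, 0 and 0.0840 CPM. In Tfam KO females it was 0.613, 0.608, 0.493 and 0.547 CPM, and in KO males 0.770 and 0.382 CPM. The Tfam groups did not overlap in either sex, and the means of 0.569 and 0.0517 CPM differed 11-fold. Counts behind these values were 0 to 10 in controls and 29 to 68 in KO, and a count of 0 allows up to 3 counts, or 0.0377 to 0.0534 CPM in the 4 control libraries concerned. The fitted difference on the log2 scale came to 3.43 (SE 0.62), and to 4.09 without control female replicate 1, the control library with the highest Hrk.

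In islets labelled Clec KO the level was higher still. On RFD, Hrk was 1.89, 2.66, 2.83 and 2.54 CPM in KO and 0.0384, 0, 0.220 and 0.152 CPM in controls, a 24.1-fold difference of means without overlap. On HFD it was 4.97, 6.71, 4.56, 0 and 4.98 CPM in replicates 1 to 5 of the KO, and 0 to 0.194 CPM (median 0.0866) in the 6 controls. Replicate 4, the library that stood apart, had 0 counts of 37714743, which allows up to 0.0795 CPM, so Hrk was not higher in every library labelled KO. The means were 4.25 and 0.0909 CPM, and 5.31 CPM in KO without replicate 4, which makes the fold 46.7 with it and 58.4 without it. The log2 fold changes were 4.67 (SE 1.02) on RFD and 5.39 (SE 0.85) on HFD. The Clec16a libraries were read on 2 lanes, named in their file names. Within lane 7 Hrk was 1.89 to 2.83 CPM in 3 KO and 0 to 0.0384 CPM in 2 controls on RFD, and 4.97 to 4.98 CPM in 2 KO and 0 to 0.179 CPM in 3 controls on HFD. In lane 8 the RFD values were 2.66 CPM in 1 KO and 0.152 to 0.220 CPM in 2 controls, and the HFD values were 0 to 6.71 CPM in 3 KO and 0 to 0.194 CPM in 3 controls.

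Control livers held more Hrk than control islets, at 0.319, 0.317, 0.129, 0.247, 0.341 and 0.447 CPM (lowest 0.129, median 0.318, highest 0.447). Mfn DKO livers had 3.68, 3.36, 3.71 and 5.13 CPM, all above the controls, with a mean of 3.97 CPM and a 13.2-fold difference. Tfam KO livers had 0.950, 3.30 and 0.872 CPM, also above every control, for a 5.69-fold difference of means that was 3.04-fold without replicate 2. The fitted log2 fold changes were 3.72 (SE 0.40) for Mfn DKO and 2.51 (SE 0.42) for Tfam KO. Both comparisons share the 6 control livers.

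**Figure D2:**
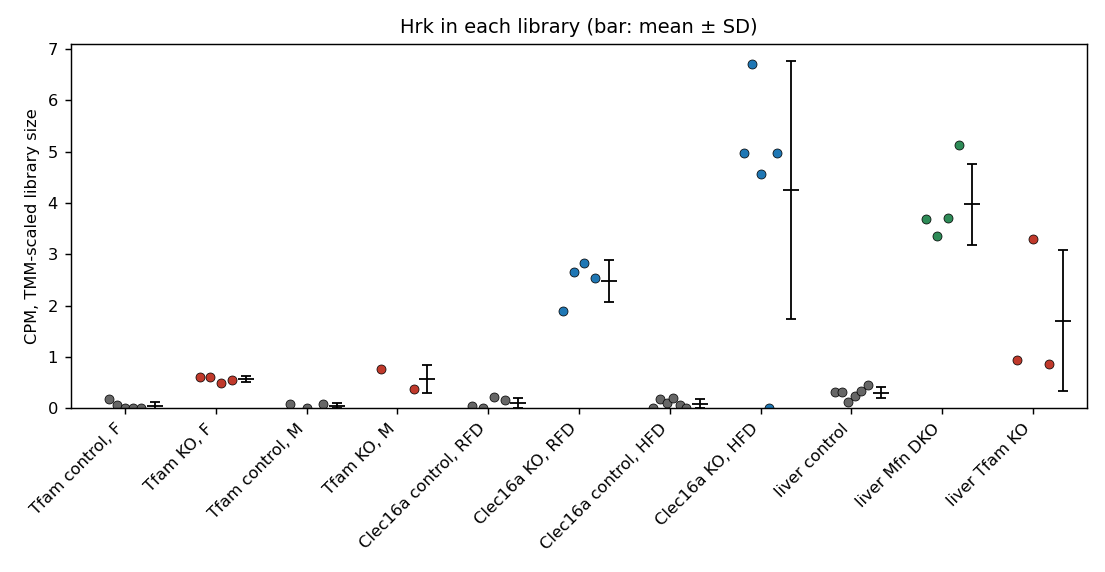
Hrk in each of the 46 libraries, in CPM on TMM-scaled library sizes, by group, with the mean and SD beside the points (n per group 2 to 6). All knockout groups lie above their controls except for 1 of 5 libraries labelled Clec KO on HFD, which is at 0.

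Marker genes of other cells were set beside these levels. In bulk tissue, fewer cells of a type and less RNA per cell cannot be told apart. The 8 neuron and glia markers summed to 235 to 303 CPM in Tfam control islets and 217 to 247 CPM in Tfam KO islets. In Clec16a islets they summed to 204 to 313 CPM in controls and 210 to 301 CPM in libraries labelled KO. Their medians there were 259 CPM in controls and 263 CPM in KO on RFD, and 247 and 276 CPM on HFD. In livers the sum was at most 3.35 CPM in any group, with Snap25 and Elavl4 at or under 3 counts in all 3 groups. The 8 β-cell markers summed to 187733 to 293881 CPM in Tfam controls and 105143 to 140851 CPM in Tfam KO, without overlap. In Clec16a islets their sum was 209782 to 346273 CPM in controls and 194676 to 228396 CPM in KO on RFD. The HFD sums were 231352 to 337090 and 136865 to 247797 CPM. On RFD the 6 endothelial markers summed to 339 to 374 CPM in Clec16a controls and 583 to 699 CPM in libraries labelled KO. Their sum on HFD was 321 to 431 CPM in controls and 374 to 672 CPM in KO, with the lowest KO value in replicate 4. In Mfn DKO livers the 5 proliferation markers summed to 23.9 to 60.7 CPM against 4.52 to 10.6 CPM in controls, and in Tfam KO livers to 16.0 to 21.2 CPM. The 6 T or B cell markers summed to 10.9 to 15.2 CPM in Tfam control islets and 2.47 to 5.29 CPM in Tfam KO islets. The 9 fibroblast or stellate cell markers summed on RFD to 49.1 to 63.1 CPM in Clec16a controls and 65.3 to 112.7 CPM in libraries labelled KO, and on HFD to 45.2 to 77.9 and 73.3 to 121.5 CPM. Hepatocyte markers summed to 95642.2 to 139018 CPM in control livers, 80903.9 to 100912 CPM in Mfn DKO livers and 23324.6 to 95460.3 CPM in Tfam KO livers. The part of these shifts in the level of Hrk was not tested.

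Hrk was also compared between knockout groups. A gene was called at a Benjamini-Hochberg adjusted p of 0.05 or less over all genes tested, by the quasi-likelihood test of edgeR. These contrasts use libraries that also served to choose Hrk, which in islets passed the filter on low counts through them. Their p-values are therefore not independent of that choice. The interactions of genotype with sex (log2 difference -0.08, 95% interval -2.64 to 2.48) and with diet (0.72, interval -2.10 to 3.54) are built from the contrasts behind the choice and are given without a test. Both intervals are wide enough to hold a 4-fold difference in either direction. In Clec16a controls Hrk had too few counts to pass the filter by themselves, and the difference between the diets there (log2 0.03, SE 1.11) is given without a test. HFD against RFD gave a log2 fold change of 0.76 in libraries labelled Clec KO (SE 0.73, interval -0.67 to 2.18, edgeR adjusted p = 1). Without replicate 4 the 4 KO libraries on HFD (4.56 to 6.71 CPM) lay above the 4 on RFD (1.89 to 2.83 CPM), yet the HFD against RFD fold in KO did not pass the threshold in any of the 26 alternative fits (lowest edgeR or DESeq2 adjusted p 0.585). Between the liver knockouts, Hrk was lower in Tfam KO than in Mfn DKO in 3 of 3 libraries, at a log2 fold change of -1.21 (SE 0.46, unadjusted p = 0.0198) that was not called (edgeR adjusted p = 0.168). Leaving out Tfam KO replicate 2 made it -2.12, with an edgeR adjusted p of 0.033, in a fit that called 0.283% of all genes. That library had the highest Hrk of the 3 (3.30 CPM against 0.950 and 0.872 CPM). Its removal widened the difference by construction, so this p-value cannot decide whether the 2 knockouts differ.

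Among the BH3-only sensors in islets, Bbc3 rose with Tfam KO and Bcl2l11 fell in the libraries labelled Clec KO. In the Tfam islets 2 of the 9 genes were called, Bbc3 and Bax, both higher, where 20.9% of the 19752 genes tested were called. Bbc3 was 9.81, 10.1, 9.54, 14.2 and 12.5 CPM in control females and 17.0, 15.2, 14.1 and 15.8 CPM in KO females. In males it was 9.96, 8.05 and 9.65 CPM in controls and 14.7 and 12.7 CPM in KO. The KO libraries overlapped the controls only in the females, where 3 of 4 lay above every control. Its log2 fold change was 0.51 (SE 0.10, edgeR adjusted p = 0.00126), called in all 22 alternative fits. The 7 uncalled genes lay between -0.10 and 0.21, and the median of the 9 was 0.155 beside -0.00924 over all genes.

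Bcl2l11, the gene of BIM, fell in islets labelled Clec KO on both diets. On RFD it was 23.0, 13.7, 14.3 and 13.1 CPM in KO and 23.7, 22.2, 27.7 and 28.4 CPM in controls, so 3 of 4 KO libraries lay below every control and replicate 1 did not. The log2 fold change was -0.68 (SE 0.18, edgeR adjusted p = 0.0243). It was the single gene called of the 9, where 7.52% of 17254 genes were called. On HFD it was 12.2, 16.9, 14.1, 22.0 and 13.5 CPM in KO and 20.8 to 25.8 CPM (median 22.0) in controls. Replicate 4, with 0 counts of Hrk, was the KO library inside the control range. The log2 fold change was -0.53 (SE 0.15, edgeR adjusted p = 0.0321), again the 1 called gene of 9 (9.57% of all genes). In both lanes and on both diets the mean was lower in KO, by ratios of 0.49 to 0.77. Both calls were close to the threshold: the RFD call was lost without control replicate 3 or 4 or KO replicate 2, 3 or 4 (edgeR adjusted p 0.0718 to 0.0808), and the HFD call without control replicate 3 or 5 or KO replicate 1, 2, 3 or 5 (0.0616 to 0.102). In Tfam KO islets Bcl2l11 was not called (log2 fold change 0.21), and whether the 2 islet models differ was not tested, since they are separate experiments.

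**Figure D3:**
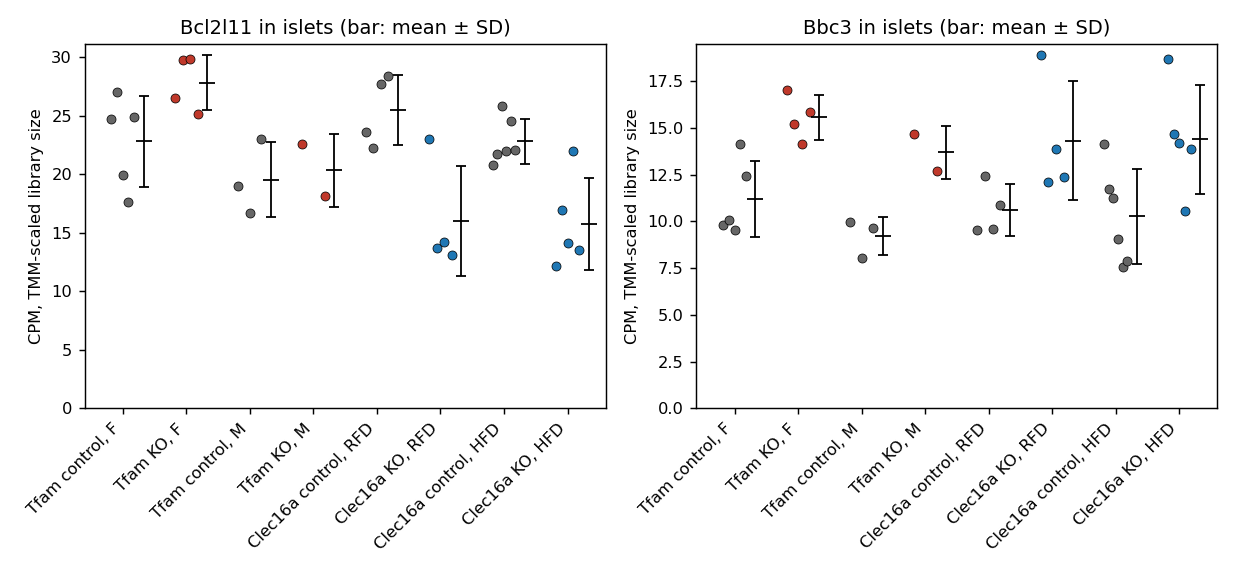
Bcl2l11 and Bbc3 in CPM in each of the 33 islet libraries, by group, with mean and SD. In the islets labelled Clec KO, Bcl2l11 lies below the controls in all but 1 library per diet, and Bbc3 lies above its controls in both sexes of Tfam KO except for overlap in females.

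Bbc3 in the libraries labelled Clec KO was 18.9, 12.1, 13.9 and 12.4 CPM on RFD against 9.52, 12.4, 9.57 and 10.9 CPM in controls, and it was not called (log2 fold change 0.43, edgeR adjusted p = 0.208). On HFD it was 18.7, 14.7, 14.2, 10.6 and 13.9 CPM against 7.58 to 14.1 CPM (median 10.2) in controls (log2 fold change 0.49, edgeR adjusted p = 0.0746, not called). Without HFD replicate 4, 4 of the 9 genes were called on HFD, Bbc3, Bad and Bcl2 higher and Bcl2l11 lower, and the share called over all genes rose from 9.57% to 20%. Pmaip1 was low in all islets, at 0.265 to 1.07 CPM, and was called in no islet comparison. Bad, at 15.9 to 26.6 CPM over the islet libraries, differed from its controls by at most 0.20 (log2) in the 3 islet comparisons and was not called with all libraries in.

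Of the effectors, Bax rose in Tfam KO islets, at 29.8, 29.0, 27.6 and 27.9 CPM in KO females against 23.2, 21.9, 24.3, 31.6 and 21.6 CPM in control females. The male values were 30.5 and 29.9 CPM in KO against 23.5, 22.2 and 22.9 CPM in controls. Control female replicate 4 lay above all 6 KO libraries, and the other 7 controls lay below all of them. The log2 fold change was 0.29 (SE 0.08, edgeR adjusted p = 0.015), and the call was lost when only females were fitted (0.22, edgeR adjusted p = 0.234). Within the Clec16a experiment Bax differed by -0.12 on RFD and -0.03 on HFD (log2) and was not called. Bak1, which shares exons with the opposite-strand gene Ggnbp1, was called in no comparison, with all libraries in. Whether the counting used strand is not stated, so reads of such pairs, including Bad with Gpr137, may have been shared.

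Bcl2, Bcl2l1 and Mcl1 were called in none of the 3 islet comparisons of KO with control. Mcl1, which buffers the cell against NOXA and BIM, was 100.3 to 125.6 CPM in Tfam controls and 97.2 to 124.1 CPM in Tfam KO, and 82.1 to 101.5 CPM in Clec16a controls and 75.2 to 100.3 CPM in KO. Its log2 fold changes lay between -0.10 and 0.03, with 95% intervals that reached no further than -0.23 and 0.18. Bcl2l1 differed by 0.16 to 0.24 (log2) in these 3 comparisons, with the lowest edgeR adjusted p at 0.10. Bcl2 was -0.08 in Tfam KO islets, 0.20 on RFD and 0.41 on HFD, the last with an edgeR adjusted p of 0.109. Mean TPM, which are not scaled for library composition, were higher in KO than in controls for all 3 genes in both islet experiments. By TPM, Bcl2l1 was 36.2 to 39.9 in Tfam KO and 22.7 to 32.1 in Tfam controls, without overlap. Mcl1 averaged 85.4 and 70.1 TPM there, with overlap. Bax, Bbc3, Bad, Bak1 and Hrk were also higher by TPM in Tfam KO without overlap, so this was not particular to Bcl2l1. Bad was among them although its CPM overlapped. The share of all genes without overlap by TPM was not counted.

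For the 9 genes other than Hrk, no difference by diet and no interaction with sex or diet was called. The interaction of Tfam KO with sex called 0 of the 9 and 0.0% of all genes by edgeR, with 1 member (Pmaip1, at 1.09) and 1230 genes at an unadjusted p under 0.05, and DESeq2 called 0 members and 34 genes. HFD against RFD called 0 members in Clec16a controls (0.0406% of genes) and 0 in KO (0.0116%), with 0 members at an unadjusted p under 0.05 in either and 0 by DESeq2. The genotype by diet interaction called 0 members and 0.0% of genes by edgeR, with 406 genes at an unadjusted p under 0.05 and 20 genes called by DESeq2, none of them a member.

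In livers the effector Bax, the guardian Bcl2l1 and the BH3-only gene Pmaip1 rose with Tfam KO, to very different degrees between its 3 libraries. In Tfam KO livers 4 of the 9 genes were called, Bax, Pmaip1 and Bcl2l1 higher and Bad lower, where 29.3% of 17024 genes were called. Bax was 37.3, 49.7 and 18 CPM in Tfam KO and 12.7, 12.7, 17.1, 14, 15.5 and 11.8 CPM in controls (lowest 11.8, median 13.4, highest 17.1). All 3 KO libraries lay above every control, replicate 3 by little. The log2 fold change was 1.33 (SE 0.24, edgeR adjusted p = 0.00246), and it was 0.99 and still called without replicate 2.

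The other liver calls were lost without that library, and not only then. Bcl2l1 was 48.6, 123.1 and 42.3 CPM in Tfam KO and 37.9 to 46.2 CPM (median 40.8) in controls, so replicate 2 was far above the others and replicate 3 lay inside the control range. Its log2 fold change of 0.79 (SE 0.25, edgeR adjusted p = 0.0331) became 0.15 (adjusted p = 0.457) without replicate 2. The Bcl2l1 call was lost in 9 of 19 alternative fits. Among them were the fits without control replicate 1, 3, 4, 5 or 6 (edgeR adjusted p 0.0554 to 0.0609) and the fit with Xist as a covariate (0.0572). Pmaip1 was 1.25, 4.82 and 1.70 CPM in Tfam KO against 0.898 to 1.44 CPM (median 1.15) in controls. Its log2 fold change of 1.20 (SE 0.35, edgeR adjusted p = 0.0239) became 0.38 (adjusted p = 0.366) without replicate 2. The Pmaip1 call was lost in 3 of 19 alternative fits. Bcl2 was 4, 11.7 and 2.82 CPM against 2.05 to 4.16 CPM, and it was not called (1.03, edgeR adjusted p = 0.0541). Its 2.04-fold ratio of means was 1.13 without replicate 2. Bak1 followed the same pattern at 12.9, 24.7 and 13.1 CPM against 12.3 to 15.2 CPM in controls (a ratio of 1.27, and 0.979 without replicate 2), and was not called.

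Bad was the 1 gene of the 9 called lower in Tfam KO livers, on TMM-scaled counts. Its TPM, which are not scaled for library composition, ran the other way, at a mean of 24.8 in Tfam KO and 19.9 in controls. It was 19.8, 17.3 and 21 CPM against 21, 22.5, 25.2, 24.2, 25.2 and 24.7 CPM in controls, with replicate 3 overlapping the lowest control. The log2 fold change of -0.30 (SE 0.10, edgeR adjusted p = 0.0366) was lost in 6 of 19 alternative fits, among them those without Tfam KO replicate 1 or 2 or control replicate 6. Bcl2l11 in livers was 6.34 to 10.8 CPM in Tfam KO and 5.69 to 10.4 CPM in controls. Mcl1 was 118.2 to 144.0 CPM in Tfam KO and 122.0 to 150.0 CPM in controls (log2 fold change -0.07, interval -0.30 to 0.17). Neither was called. By TPM, Mcl1 was 99.7 to 175 in Tfam KO livers and 76.4 to 89.5 in controls, without overlap. Bax, Bcl2l1, Bak1, Pmaip1 and Hrk were also higher there by TPM without overlap, and the share of all genes was not counted.

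**Figure D4:**
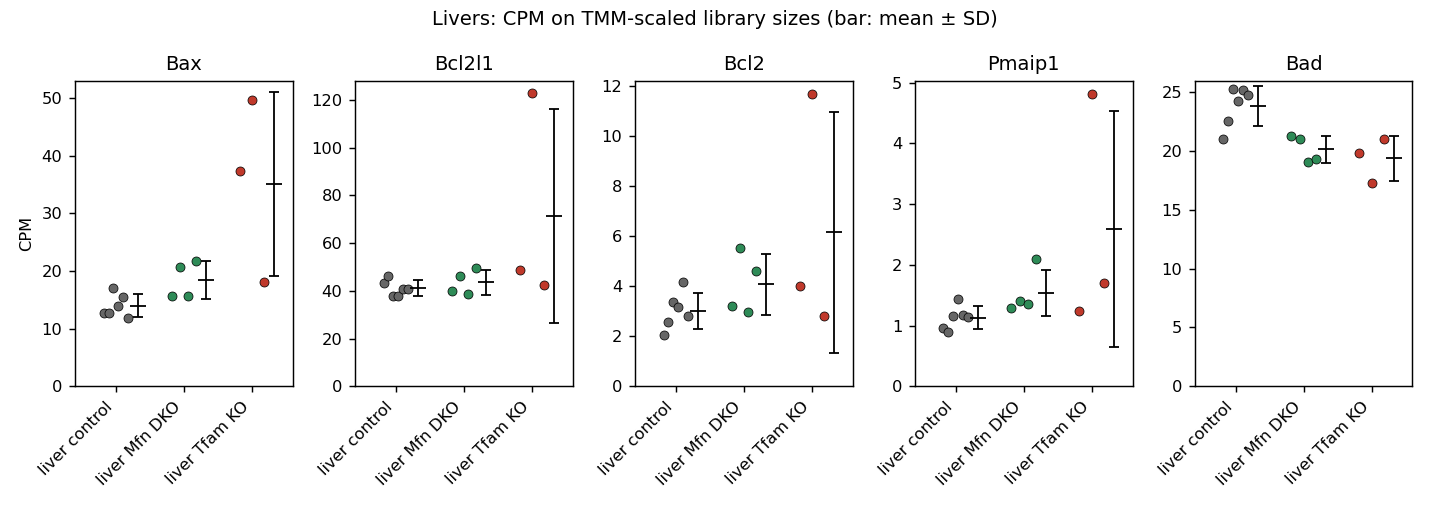
Bax, Bcl2l1, Bcl2, Pmaip1 and Bad in CPM in the 13 liver libraries, by group, with mean and SD (n = 6, 4 and 3). Tfam KO replicate 2 is the highest point for Bax, Bcl2l1, Bcl2 and Pmaip1 and the lowest for Bad.

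Mfn DKO livers had no call among the 9 genes, where 9.87% of all genes were called, although Hrk was 13.2-fold higher. One member, Bad (-0.24), had an unadjusted p under 0.05, and DESeq2 called it. The log2 fold changes of the 9 lay between -0.24 and 0.46. Bax was 15.6, 20.8, 15.7 and 21.7 CPM against at most 17.1 CPM in controls, with 2 of 4 libraries above every control (0.40, 95% interval -0.04 to 0.83). Bbc3 was 14.1, 14.8, 7.93 and 14.9 CPM against 5.64 to 12.7 CPM, with 3 of 4 above every control (0.46, interval -0.14 to 1.07). Set directly against Mfn DKO, Tfam KO livers had 0 of 10 members called (0.294% of all genes). The unadjusted p was under 0.05 for Hrk, Bax, Bak1 and Bcl2l1, and DESeq2 called Bax. Bax was higher in Tfam KO by 0.93 (log2, interval 0.41 to 1.44, edgeR adjusted p = 0.102). Without Tfam KO replicate 3, Bax, Bak1 and Bcl2l1 were called, in a fit that called 24.0% of all genes.

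**Figure D5:**
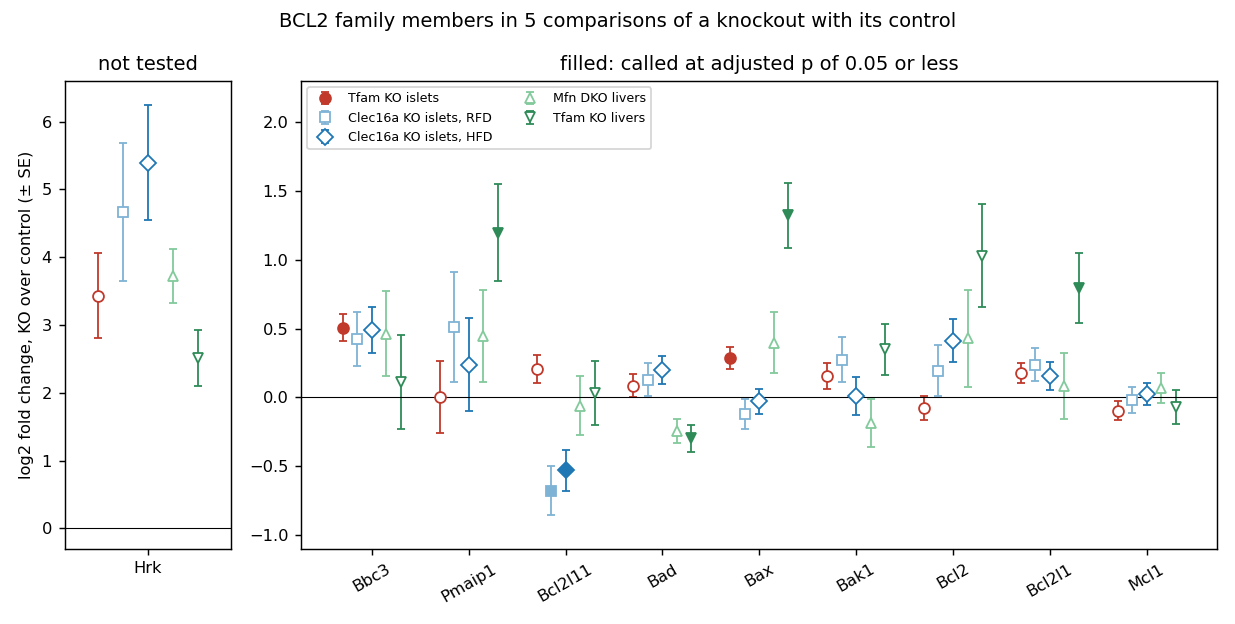
Fitted log2 fold changes with SE of the 10 genes in the 5 comparisons of a knockout with its own control, coloured by comparison, Hrk on an axis of its own and without a test. Hrk lies between 2.51 and 5.39, while the other 9 lie between -0.68 and 1.33, with filled symbols for the 8 calls.

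Genes acting upstream and downstream of the family were taken from fixed lists that were drawn up with earlier results of these libraries known. The list of other BCL2 relatives held 15 genes, and its medians in the 5 comparisons of a knockout with its control lay between -0.0416 and -0.000878 (log2), beside medians of -0.00924 to 0.031 over all genes. The shares called over all genes, given above, were 20.9% in Tfam KO islets, 7.52% and 9.57% in the islets labelled Clec KO, 9.87% in Mfn DKO livers and 29.3% in Tfam KO livers. In Tfam KO islets 2 of 13 tested relatives rose and 2 fell, the latter 0 to 2 over the alternatives and different from 2 in 14 of 22, among them Bid, the BH3-only substrate of caspase-8 (0.73, edgeR adjusted p = 0.00106), and Bik, a BH3-only gene of the endoplasmic reticulum (-0.64, adjusted p = 0.0119). Of 11 tested in the Clec16a islets, 0 were called by edgeR on either diet. In Mfn DKO livers 0 of 13 rose and 3 fell, namely the mitophagy receptors Bnip3 (-0.97, edgeR adjusted p = 0.0191) and Bnip3l (-0.45, adjusted p = 0.0117) and the BH3-only gene Bmf (-1.92, adjusted p = 0.0377, called in 10 of 19 alternative fits). In Tfam KO livers 1 rose and 4 fell, with Bid at 1.10 (edgeR adjusted p = 0.00859) and Bnip3 at -1.08 (adjusted p = 0.0081).

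Downstream, Apaf1, the scaffold of the apoptosome, was called higher in Mfn DKO livers (0.82, edgeR adjusted p = 0.0479), a call kept in 7 of 19 alternative fits, and in Tfam KO livers (1.25, adjusted p = 0.00448), kept in 18 of 19. Of 17 apoptosome, caspase and release genes (medians -0.109 to 0.0462), 3 rose and 1 fell in Tfam KO islets, led by the outer-membrane channel Vdac3 (1.21, edgeR adjusted p = 5.14e-09), and 3 rose and 0 fell in Tfam KO livers. Vdac1 was also called higher in Tfam KO islets (0.38, edgeR adjusted p = 0.000592). In the islets labelled Clec KO it fell on RFD (-0.50, edgeR adjusted p = 0.00941) and on HFD (-0.56, adjusted p = 0.00124), where 0 of the 17 rose. Among 5 caspase inhibitors (medians -0.093 to 0.0763) at most 1 was called in any comparison of a knockout with its control. Of 9 death receptor genes (medians -0.021 to 0.283), the receptor Tnfrsf10b rose in Tfam KO islets (0.93, edgeR adjusted p = 0.000836), in Mfn DKO livers (2.11, adjusted p = 0.0428) and in Tfam KO livers (4.42, adjusted p = 0.00097). The Mfn DKO call of Tnfrsf10b was kept in 8 of 19 alternative fits. Cflar, which encodes the caspase-8 inhibitor FLIP, fell in Tfam KO islets (-0.45, edgeR adjusted p = 0.000404) and Tfam KO livers (-1.05, adjusted p = 0.00242).

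Upstream, transcription factors known to act on BH3-only genes were called higher more often than lower. In Tfam KO islets 6 of 11 rose and 0 fell, at a median of 0.34 (log2) beside -0.01 over all genes, with Atf3 at 3.88 (edgeR adjusted p = 9.96e-08) and Ddit3 at 2.80 (adjusted p = 1.21e-09). In the islets labelled Clec KO, 2 of 11 rose on RFD and 4 of 11 on HFD (medians 0.125 and 0.661), Atf4 by 0.67 (edgeR adjusted p = 0.0185) and 0.72 (adjusted p = 0.00347), and 0 fell. Mfn DKO livers had 3 of 11 higher and 0 lower (median 0.405), Ddit3 by 1.64 (edgeR adjusted p = 0.025). Tfam KO livers had 6 higher and 2 lower (median 0.955), with Ddit3 at 3.15 (edgeR adjusted p = 0.000838) and Foxo3 at -1.11 (adjusted p = 0.00498). Over the alternatives the factors called higher numbered 0 to 4 in Mfn DKO and 2 to 6 in Tfam KO livers. In islets they numbered 5 to 6 with Tfam KO, 1 to 3 on RFD and 2 to 5 on HFD. Of 12 p53 targets other than Bbc3, Pmaip1 and Bax, 9 rose and 1 fell in Tfam KO islets (median 0.995), and 2 on RFD and 3 on HFD rose in islets labelled Clec KO, with 0 lower (medians 0.252 and 0.387). In Mfn DKO livers 4 rose (median 0.807) and in Tfam KO livers 10 rose (median 1.84), with 0 lower. These counts moved with the setting, to between 0 and 10 in Mfn DKO and between 3 and 10 in Tfam KO livers, while 9 were higher in Tfam KO islets in every alternative. The cell cycle inhibitor Cdkn1a was called on RFD (2.81, edgeR adjusted p = 0.00263), on HFD (2.97, adjusted p = 0.000259), in Mfn DKO livers (3.36, adjusted p = 0.00722) and in Tfam KO livers (4.69, adjusted p = 0.000972). Without Tfam KO liver replicate 2, the Bid call was lost (0.80, edgeR adjusted p = 0.0621). The others named for these livers were still called, with Tnfrsf10b at 2.94, Cdkn1a at 3.79, Ddit3 at 3, Apaf1 at 0.82, Bnip3 at -0.76, Cflar at -0.84 and Foxo3 at -0.92. Without HFD replicate 4, Vdac1 (-0.65), Atf4 (0.85) and Cdkn1a (3.26) were still called. Several genes of this p53 list are also induced by ATF4 or CHOP, among them Sesn2, so the list does not separate p53 from these factors.

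The genes most like Hrk were sought among 14503 genes that passed the filter in all 3 experiments. Likeness was Pearson's r of log2 CPM after the mean of the matching controls was subtracted, over all 46 libraries, which share the genotype contrast and, within an experiment, the normalization. The 8 highest were Fam129a (0.89), Gdf15 (0.87), Snhg12 (0.87), Adm2 (0.86), Fut1 (0.85), Stc2 (0.84), Clic4 (0.84) and Gm19619 (0.84). The order depended on the measure: by Spearman's rho Adm2 came first and Snhg12 second of 14503, while Fam129a held place 40 and Stc2 place 25, and over the islets alone Fam129a held place 14. Fam129a, a stress-induced gene also known as Niban, was 83.8 to 136.8 CPM in Tfam KO islets against 8.87 to 22.9 CPM in their controls. In the islets labelled Clec KO on HFD it was 7.44 CPM in replicate 4 and 69.0 to 102.1 CPM in the other 4. Gdf15, which encodes a secreted stress cytokine, was 0.210 CPM in that replicate and 9.88 to 14.1 CPM in the others. In livers Gdf15 was 0.951 to 8.98 CPM in controls, 18 to 31.1 CPM in Mfn DKO and 31.3 to 95.8 CPM in Tfam KO. Over the 33 islet libraries alone, Fam129a had r = 0.90 and Gdf15 r = 0.92, and over the 13 livers 0.86 and 0.69. Among the other members Bbc3 was closest to Hrk at r = 0.55, place 449 of 14503, and Bcl2l11 was farthest at -0.36. Promoter windows were listed for 7 of the 8 genes, and TGATGNAA lay in none of their 8 windows.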

How the data were processed

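RNA of islets and livers was read as 151 bp pairs, per the labels' protocols, and the submitters' processing notes name STAR 2.6.1b, RSEM 1.3.1, featureCounts, DESeq2 and GRCm38, without saying which tool made which column. For 55487 genes the deposited files hold read counts beside TPM and CPM columns, named so in the headers; 55141 identifiers are in GENCODE M21, the source of gene positions. Counts were whole numbers and were tested as deposited. The authors' TPM served to order genes within a library and, for Bad and the guardians, as a second description of level. The authors' CPM equalled count over total and were replaced by CPM on TMM-scaled library sizes.

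Grouping follows the labels. The 3 experiments were fitted separately, with edgeR 4.0.16 (R 4.3.3; quasi-likelihood F-test, TMM, filterByExpr, two-sided, Benjamini-Hochberg over all genes tested, adjusted p of 0.05 or less), with sex as a term in the Tfam islets; SE is the log2 fold change over the root of F. All 10 members passed the filter in each experiment, Hrk in both islet experiments through its knockout libraries. Log2 CPM for the likeness to Hrk had a prior count of 2. Alternatives used DESeq2 1.42.0 size factors or its Wald test, no filter, each library left out, the replicate number as a block, acinar markers, lane or Xist as covariates, only the compared groups, in the Tfam islets no sex term or 1 sex, and for the likeness to Hrk Spearman's rho or islets alone. Ddit3 has 2 identifiers, of which 1 passed the filter. The fit was tested on simulated data. Same-numbered libraries of different groups did not deviate together (median residual correlation 0.229 over 6 pairs, -0.0994 over 9 and 0.103 over 10), so the numbers do not pair them.

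The members, gene lists and tests were chosen with earlier results of these data known. All members were named with their levels; fold changes are given for called members, with the ranges of the others and values of members near the threshold chosen after they were seen. Of each list at most the 3 called genes with the smallest adjusted p per comparison were eligible. The limit from 0 counts covers counting error only, since reads carry no molecular identifiers. The intervals of fold changes are the estimate ± 1.96 SE and include the spread between libraries. With so few libraries they are narrower than the F-test implies and cover less than 95%. Bcl2l11 in Tfam KO islets, for example, had 0.0024 to 0.4097 at an unadjusted edgeR p of 0.065. Xist was between 302.2 and 534.2 CPM with 0 counts of Ddx3y in all 19 Clec16a libraries. The livers were of both kinds, and their balance over the liver groups was not tested.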

Additional observations from a re-analysis of the deposited data

Results flagged for a closer look

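Among 80 combinations of a member and a group of 4 to 10 libraries, 7 held a library far from the rest of its group by Dixon's test, which chance alone does in about 1 of 20. In Mfn DKO livers, Bbc3 was 7.93 CPM in replicate 3 where the others had 14.1 to 14.9 CPM. Pmaip1 in replicate 4 of that group was 2.10 CPM where the others had 1.29 to 1.41 CPM, and Bak1 in the same library was 13.2 CPM where the others had 11.1 to 11.3 CPM. In islets labelled Clec KO on RFD, replicate 1 had 23.0 CPM of Bcl2l11, inside the control range, where the others had 13.1 to 14.3 CPM. The same library had 5.37 CPM of Bcl2 where the others had 6.46 to 6.49 CPM. In Tfam control females, replicate 4 had 31.6 CPM of Bax where the others had 21.6 to 24.3 CPM. In Tfam KO females, Mcl1 was 106 CPM in replicate 1 and 97.2 to 98.3 CPM in the others. Groups of 2 or 3 libraries, among them the Tfam KO livers, were not screened this way.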

How the results depend on the processing

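Over the alternatives, 347 of the recomputed log2 fold changes stayed the same, 34 lost the threshold, 1 passed it and 13 changed sign. For tested values, the same means direction and side of the threshold. Untested Hrk values of a knockout against its own control counted as the same when they shifted by less than 1 SE. Among the 347 these were 21 in Tfam KO islets, 26 on RFD and 25 on HFD in islets labelled Clec KO, 19 in Mfn DKO livers and 18 in Tfam KO livers. Another 2 moved without a test (Hrk in Tfam KO islets to 4.09 without control female replicate 1 and in Tfam KO livers to 1.61 without replicate 2). Of 16 recomputed correlations with Hrk, 9 moved. The number of members called in Tfam KO islets was 1 with females only instead of 2. With the replicate number as a block, 0 members were called in the islets labelled Clec KO on RFD, on HFD and in Tfam KO livers (Bcl2l11 with adjusted p of 0.0517 and 0.0767, Bax in livers 0.0566), and Bax was lost in Tfam KO islets (0.0641). On HFD 2 members were called with the Wald test of DESeq2 and 2 with lane as a covariate. In Mfn DKO livers 1 was called with the Wald test and 2 when only the compared groups were fitted, in Tfam KO livers 1 with only those groups, and between the liver knockouts 1 with the Wald test. When each library was left out in turn, the members called ranged from 0 to 1 on RFD and 0 to 4 on HFD. They ranged from 0 to 1 in Mfn DKO livers, 1 to 5 in Tfam KO livers and 0 to 3 between the liver knockouts. The calls over all genes moved over the alternatives too, from 169 to 4338 genes in Mfn DKO livers and 762 to 3369 on HFD. In Tfam KO livers their share moved from 2.32% to 41.8%. Shifts in the member counts are therefore not particular to the family.

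Some Hrk log2 differences changed sign in places. The sex interaction (-0.08) was 0.65 with the block and -1.50 to 0.36 with libraries left out, HFD against RFD in controls (0.03) was -0.10 by the Wald test and -0.48 to 0.58 with libraries left out, and the genotype by diet interaction (0.72) was -0.0769 with the block. Fitting only the compared groups gave no Hrk value on HFD or between the diets in controls, where it failed the filter.

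Over all genes, leaving out single libraries moved the called genes to between 523 and 2015 (from 1298) on RFD, 786 and 3369 (from 1652) on HFD, 686 and 3379 (from 1681) in Mfn DKO livers, 2504 and 7330 (from 4992) in Tfam KO livers and 24 and 4204 (from 50) between the liver knockouts. Other settings gave 1704 to 4898 (from 4119) in Tfam KO islets, 776 to 1897, 762 to 2128, 169 to 4338, 395 to 5884 and 6 to 1087 in the same order. Few Hrk counts in controls limit the precision of every Hrk fold change.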
